A study of Saccharomyces cerevisiae with 11 samples.

Results

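Described here is the response of wild-type budding yeast, Saccharomyces cerevisiae, to 2 h of glucosamine. The comparison used 6 of the study's 11 arrays, chosen by their titles: 3 of untreated cells and 3 of cells treated for 2 h. Of 9275 probe sets other than array controls, 8458 were tested because their signal, a brightness in linear units, lay above a floor of 7.7 on at least 3 of the 6 arrays, and 817 were not.

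All cells of these 6 arrays were labelled as the haploid laboratory strain BY4741 (mating type a) and came from overnight cultures in YPD, a rich glucose medium, that were diluted 50-fold and harvested at an optical density of 1.6 to 1.8. Untreated cells received nothing. Treated cells grew for 2 or 3 h after dilution and then for 2 h with 15 mM glucosamine. The study also held 3 arrays of BY4741 grown in 15 mM glucosamine overnight and after dilution, called continuous here, and 2 arrays of the fks1 strain 5251, 1 untreated and 1 with 2 h of 15 mM glucosamine. FKS1 encodes the main catalytic subunit of the wall glucan synthase. Replicates were numbered 1 to 3 in the labels, with no word on whether a number marks a separate culture, so the p-values rest on a spread between arrays that can be technical.

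Glucosamine is an amino sugar that yeast takes up and phosphorylates. Its phosphate is the product of Gfa1, the first enzyme of the hexosamine pathway, which ends in the sugar nucleotide from which chitin synthases build chitin. Damage to the cell wall is sensed at the plasma membrane and passed through a kinase cascade that ends in the mitogen-activated kinase Slt2 and the transcription factor Rlm1, which raise a known set of wall genes.

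Same-numbered untreated and 2 h arrays deviated from their group means together. Over the 8458 probe sets the correlation of these deviations was 0.361, 0.577 and 0.527 for pairs 1, 2 and 3. Arrays with different numbers had -0.492 to 0.003. Deviations within a group sum to 0, so positive values for same-numbered arrays push the others below 0 on average. The correlations of same-numbered and of different-numbered arrays are thus not independent of each other. With the continuous arrays, different-numbered ones reached 0.325, so a value near that of pair 1 also occurred without a shared number. Differences were taken within pairs, a choice made on the same data as the tests. The 5 genes expressed in mating type a cells had a summed signal of 9700 to 17559, against 280 to 355 for 4 genes of the opposite type. Both sets were above background on all 6 arrays. The 3 sporulation genes and URA3, which BY4741 lacks, were not above background, a level of 25.5 set by the array's own control probe sets. HIS3 and LEU2, which are also mutated in BY4741, were above background on all 6 arrays, at 527.5 to 886.1 and 63.7 to 99.4. On the fks1 arrays HIS3 read 479.5 and 628.7, and LEU2 65.8 and 68.5. MET17, which BY4741 is also known to lack, read 265.3 to 1248.1 on the 6 arrays and 7.6 and 7.7 on the fks1 arrays, which goes against the strain name and sets the 2 strains apart by more than FKS1. The ratio of ACT1 signal at the 3' end to that at the 5' end, a sign of RNA quality, was 1.30, 1.32 and 1.45 in untreated and 1.34, 1.33 and 1.54 in treated cells, higher after treatment in each pair, and its part in the results was not tested.

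With the pair as a block, limma called 49 of 8458 probe sets (0.579%) at an adjusted p under 0.05, of which 14 were higher (0.166%) and 35 lower (0.414%) after 2 h. They held 34 named genes, 13 higher and 21 lower; with 1 probe set a gene, 0.217% of 5540 genes were called higher and 0.343% lower. The named genes that rose included SRL3, KDX1, YNL058C and PRM5, which belong to or resemble outputs of the cell integrity pathway, URA4, FUR1 and URA1 of pyrimidine nucleotide supply, RIB4 of riboflavin synthesis and CAR1, the arginase. Those that fell included PHO5 and PHM6 of the phosphate regulon, the zinc transporter gene ZRT1, the ribosomal protein gene RPL7B and 3 small nucleolar RNAs. All 3 pairs had the same direction for every call, while the signals of the 2 groups did not overlap for 35 of the 49. Over all tested probe sets 400 (4.73%) had all treated arrays above all untreated ones and 547 (6.47%) all below, and 1223 (14.5%) were higher and 1783 (21.1%) lower in all 3 pairs.

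The calls lay near the limit of what 3 pairs resolve, since adjusted p ran from 0.00528 to 0.0499 and was above 0.044 for 25 of the 49. Without pairs limma called 0 probe sets on these 6 arrays and 3 (0.0355%) on the 9 wild-type arrays, with an unadjusted p under 0.05 for 447 (5.28%) and 518 (6.12%), against 1136 (13.4%) with pairs (5.18% higher, 8.25% lower). With a floor of 20, with no filter on dim probe sets or with no variance trend it called 0, with an unadjusted p under 0.05 for 968, 983 and 939. Without pair 1, 2 or 3 it called 84, 0 and 16, with 1297, 660 and 902 at an unadjusted p under 0.05, and median scaling gave 13 higher and 15 lower. Single pairs were noisy: the SD of the difference over probe sets was 0.48, 0.46 and 0.55 on the log2 scale, and 444, 387 and 647 probe sets differed at least 2-fold in pairs 1, 2 and 3. At least 2-fold in all 3 pairs were 6 probe sets higher and 11 lower.

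**Figure D1:**
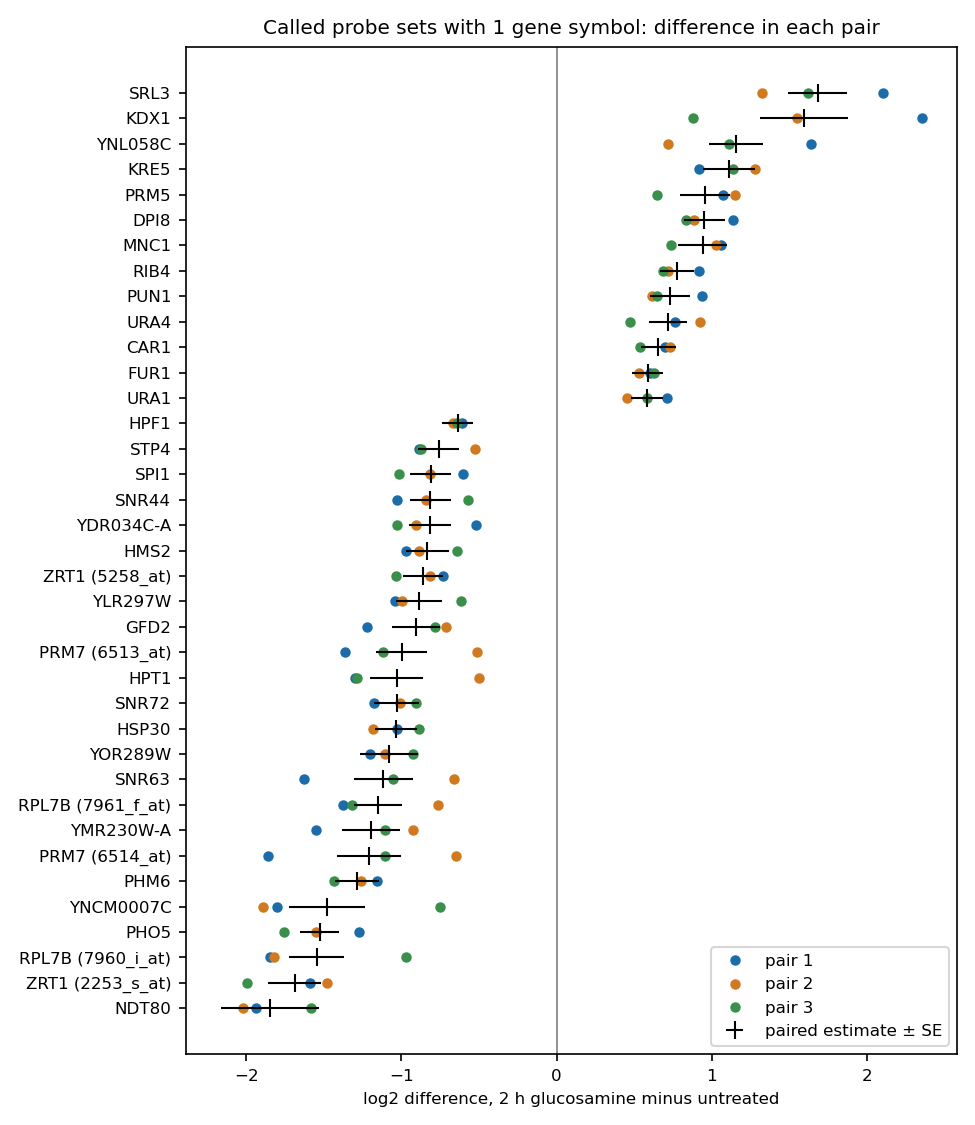
Log2 difference, 2 h glucosamine minus untreated (x axis), of the 37 called probe sets with 1 gene symbol (y axis); coloured points are the 3 pairs, black marks the paired estimate with its SE. Each point of a gene lies on the same side of 0, and the distance between points differs, from close together for HPF1 to over 1 log2 unit apart for KDX1.

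Output genes of the cell wall stress response were among those that rose. Of the 24 genes of this list, 22 had a positive difference, where 39.1% of all genes had one. An unadjusted p under 0.05 with a positive sign was found for 13, against 2.98% of all genes. SRL3, KDX1 and PRM5 passed, against 0.217% of all genes called higher. The median log2 difference was 0.39, against -0.06 over all 5540 genes tested with 1 probe set each. By pair the median was 0.59, 0.31 and 0.26. In 10 of the 24 the treated arrays all lay above the untreated ones, a pattern found in 3.77% of all genes, and 18 were higher in all 3 pairs, as were 12% of all genes. This list had been seen to be higher in these data before, so its count is not independent evidence of its direction.

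SRL3, a gene related to the cell cycle inhibitor WHI5, gave signals of 68.7, 67.0 and 61.3 in untreated cells and 294.9, 168.1 and 188.8 after 2 h. Every treated array was above every untreated one. It rose 3.21-fold (log2 1.68, SE 0.19, n = 3 pairs, limma adjusted p = 0.0113).

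KDX1, a kinase-like gene related to SLT2, read 26.1, 31.2 and 33.3 in untreated cells and 133.6, 91.3 and 61.2 after treatment. The groups did not overlap, and untreated cells were barely above background. The rise was 3.02-fold (log2 1.59, SE 0.28, n = 3 pairs, limma adjusted p = 0.0499), the call closest to the threshold.

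PRM5, a membrane protein gene that responds to the cell integrity pathway, read 160.4, 180.6 and 164.3 without and 337.5, 401.0 and 257.8 with glucosamine. The lowest treated array was well above the highest untreated one. This was a 1.94-fold rise (log2 0.96, SE 0.16, n = 3 pairs, limma adjusted p = 0.0444). YNL058C, a sequence relative of PRM5 that was not on the list, had signals of 506.7, 624.3 and 446.8 before and 1576.2, 1027.9 and 964.7 after. Its groups were apart as well, and it rose 2.23-fold (log2 1.16, SE 0.17, n = 3 pairs, limma adjusted p = 0.0363).

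Members that did not pass by limma included CRG1 (log2 1.22, adjusted p = 0.0813), TOH1, a wall protein gene (0.75, adjusted p = 0.0813), SLT2, the kinase itself (0.70, adjusted p = 0.132), and CRH1, which joins chitin to glucan (0.55, adjusted p = 0.0686). SLT2 read 285.9, 293.7 and 274.9 untreated and 585.4, 514.8 and 328.6 treated, with the smallest step in pair 3. The abundant structural genes of the list differed little: CIS3 had a log2 difference of 0.11, HSP150 of 0.18, SED1 of 0.15 and PIR1 of -0.17. RLM1, the transcription factor of the pathway, had one of 0.50 (limma adjusted p = 0.207).

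**Figure D2:**
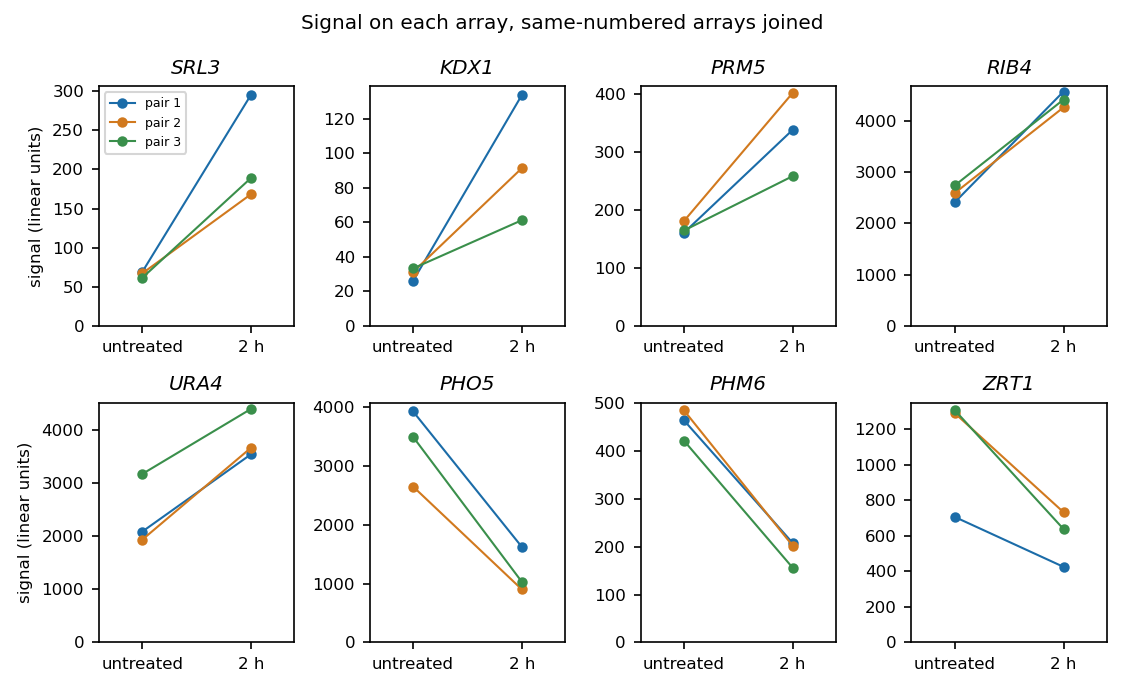
Signal in linear units (y axis, from 0) on each untreated and each 2 h array for SRL3, KDX1, PRM5, RIB4 and URA4, which rose, and for PHO5, PHM6 and the brightest probe set of ZRT1, which fell; lines join same-numbered arrays. Treated and untreated points do not overlap for 7 of the genes, and for ZRT1 the untreated array of pair 1 lies among the treated ones.

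Further along the wall, called genes went in both directions. PUN1, a plasma membrane protein gene with a part in wall integrity, rose from 652.6, 799.5 and 610.4 to 1249.8, 1223.0 and 956.4, with no overlap (log2 0.73, SE 0.13, n = 3 pairs, limma adjusted p = 0.0481). HPF1, a highly glycosylated wall mannoprotein gene, read 6200.9, 5861.1 and 6930.5 in untreated and 4070.5, 3688.5 and 4449.0 in treated cells. The groups were apart and the 3 pairs almost equal, and it fell by 0.64 on the log2 scale (SE 0.10, n = 3 pairs, limma adjusted p = 0.0413). KRE5, needed for wall glucan, was called through 1 of its 6 probe sets (log2 1.11), while the brightest had a difference of -0.02, so the gene cannot be said to have risen.

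In the hexosamine pathway and chitin synthesis 0 of 12 genes passed. Their median was 0.07, with 8 positive, 4 negative and 2 at an unadjusted p under 0.05 with a positive sign. Of all genes 39.1% were positive and 2.98% had an unadjusted p under 0.05 with a positive sign. GFA1 read 1036.7, 1062.5 and 1037.0 in untreated and 1463.5, 1324.5 and 1139.7 in treated cells. Its treated arrays were all higher, with a step that differed between the pairs (log2 0.32, SE 0.13, n = 3 pairs, limma adjusted p = 0.331). PCM1, the mutase of the same pathway, read 1375.4, 1484.5 and 1251.2 against 1891.0, 1681.8 and 1522.3, likewise without overlap (log2 0.31, SE 0.12, n = 3 pairs, limma adjusted p = 0.320). GNA1 and QRI1, which act before and after it, had differences of -0.03 each. Among the chitin synthases CHS1 had 0.06, CHS2 0.12 and CHS3 0.08, and of the genes for Chs3 transport and activation CHS5 had the highest value at 0.25 and BNI4 the lowest at -0.17.

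In pyrimidine nucleotide supply 3 genes rose. The list of 17 was drawn up after URA1, URA4 and FUR1 had been seen among the calls, so its counts only describe it: 11 were positive, 7 had an unadjusted p under 0.05 with a positive sign, and these 3 passed, with a median of 0.24 (by pair 0.40, 0.00 and 0.17). Over all genes 39.1% were positive and 2.98% had an unadjusted p under 0.05 with a positive sign. URA4, the dihydroorotase of the new synthesis of pyrimidines, read 2082.8, 1930.6 and 3167.2 in untreated and 3536.9, 3659.1 and 4390.9 in treated cells. The treated arrays were all above the untreated ones (1.65-fold, log2 0.72, SE 0.12, n = 3 pairs, limma adjusted p = 0.0444).

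URA1, the dihydroorotate dehydrogenase of the next step, read 4938.5, 5192.9 and 6138.1 and then 8092.6, 7115.0 and 9187.3. No arrays overlapped (log2 0.58, SE 0.10, n = 3 pairs, limma adjusted p = 0.0490). FUR1, which makes UMP from uracil, rose from 4079.2, 4504.0 and 3889.7 to 6195.6, 6503.4 and 6023.1. Its 2 groups were the most compact of the 3 genes (log2 0.59, SE 0.10, n = 3 pairs, limma adjusted p = 0.0444). URA2, the first enzyme of the pathway, had 0.41 (limma adjusted p = 0.171), URA6, a uridylate kinase, 0.41 (limma adjusted p = 0.304) and URA5, between URA1 and URA6 in the pathway, 0.02. Uptake genes were not among the calls, with -0.12 for the uracil permease gene FUR4 and -0.15 for the uridine permease gene FUI1. The activator gene PPR1 had -0.16.

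Among other biosynthetic and catabolic genes, RIB4, the lumazine synthase of riboflavin synthesis, had treated signals of 4565.0, 4256.6 and 4408.1 against 2410.6, 2589.4 and 2737.2. The 3 treated values lay close together and far above the untreated ones (1.71-fold, log2 0.78, SE 0.11, n = 3 pairs, limma adjusted p = 0.0273). RIB4 was the only member of 8 riboflavin genes called; RIB5, the next enzyme, had 0.28 and RIB7 -0.40 (limma adjusted p = 0.470 and 0.331), and the list median was 0.03. CAR1, which breaks down arginine, read 1520.2, 1622.7 and 1980.4 and then 2470.4, 2697.5 and 2870.8. Its groups were apart (1.58-fold, log2 0.66, SE 0.11, n = 3 pairs, limma adjusted p = 0.0444). It was the 1 call among 21 nitrogen catabolite genes, of which GLN1, the glutamine synthetase, had 0.57 (limma adjusted p = 0.0847) and the list median was 0.03. Beside the single calls of the riboflavin and nitrogen lists, 0.217% of all genes were called higher. ARO9, an aminotransferase of the Ehrlich pathway of amino acid breakdown, had 0.63 (limma adjusted p = 0.0975).

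DPI8, a small protein gene, read 296.6, 388.5 and 609.1 in untreated and 653.6, 717.8 and 1083.8 in treated cells. The groups did not overlap, but the highest untreated array came near the lowest treated one (log2 0.95, SE 0.13, n = 3 pairs, limma adjusted p = 0.0273). MNC1 read 117.2, 168.7 and 74.4 against 244.6, 343.8 and 123.8. The groups overlapped, and the rise was seen only within pairs (log2 0.94, SE 0.16, n = 3 pairs, limma adjusted p = 0.0444).

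The phosphate regulon held the call with the smallest adjusted p. PHO5, the secreted acid phosphatase, read 3926.8, 2649.5 and 3495.0 in untreated and 1626.4, 903.3 and 1032.6 in treated cells. All treated arrays were below all untreated ones. It was 2.88-fold lower (log2 -1.53, SE 0.13, n = 3 pairs, limma adjusted p = 0.00528). PHM6, another gene of the regulon, went from 463.6, 484.4 and 421.1 to 207.7, 202.0 and 156.0. Again the groups were far apart (2.44-fold lower, log2 -1.28, SE 0.14, n = 3 pairs, limma adjusted p = 0.0113).

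Of the 14 regulon genes tested, 11 were negative, 5 had an unadjusted p under 0.05 and 2 passed, with a median of -0.24 (by pair -0.11, -0.26 and -0.26). Over all genes 60.9% were negative, 9.1% had an unadjusted p under 0.05 with a negative sign and 0.343% were called lower. The vacuolar phosphatase gene PHO8 had -0.58 (limma adjusted p = 0.120), the sodium-phosphate transporter gene PHO89 -0.53 (0.219) and SPL2, a regulator of phosphate transport, -0.53 (0.144). PHO84, the high-affinity transporter, was among the brightest probe sets at 9716.1 to 12083.1 in untreated and 9703.8 to 11849.4 in treated cells. Its ranges were nearly the same (log2 -0.05), and the polyphosphate synthesis genes VTC1 and VTC4 had -0.06 and 0.06. PHO11 and PHO12 had no probe set of their own, and PHO5 is close to them in sequence, so the 3 may share signal.

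ZRT1, the high-affinity zinc transporter, had 4 probe sets, of which 2 were called. The brightest read 705.7, 1289.3 and 1305.9 in untreated and 425.1, 732.5 and 637.8 in treated cells. Untreated array 1 overlapped the treated range, and each pair fell (log2 -0.86, SE 0.13, n = 3 pairs, limma adjusted p = 0.0361). The other called one had -1.69, another -0.86 (limma adjusted p = 0.0523) and the last -0.17. In the zinc regulon 10 of 11 genes were negative with a median of -0.27, 5 had an unadjusted p under 0.05, and ZRT1 was the only call. The shares over all genes were 60.9% negative, 9.1% lower at that p and 0.343% called lower. ZPS1 had -0.39 and ZRT2, the low-affinity transporter, -0.30, while ZAP1, the activator of the regulon, had -0.14 (limma adjusted p = 0.275, 0.385 and 0.770).

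Other genes of metal uptake did not pass: FRE1, a metal reductase, had -0.83 (limma adjusted p = 0.0758) and CTR1, the copper transporter, -1.20 (limma adjusted p = 0.132).

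Mitochondrial ribosomal protein genes formed the list with the lowest median, though no single member passed. Of 67 tested, 62 were negative and 5 positive, and the median was -0.31, against -0.06 over all genes, of which 60.9% were negative. It was negative in each pair, at -0.17, -0.39 and -0.37. An unadjusted p under 0.05 with a negative sign was found for 27 of the 67, against 9.1% of all genes, and all treated arrays lay below all untreated ones for 23, against 7.35%. In all 3 pairs 40 were lower, as were 25.2% of all genes. In the 15 alternatives of processing the list median stayed between -0.37 and -0.23. The members were measured on the same 6 arrays and are not independent replicates.

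Negative values were found for both subunits. All 34 genes of the MRPL series, named for the large subunit, were negative with a median of -0.34, and 18 of 20 genes of the MRPS and RSM series of the small subunit were, with a median of -0.29. The median signal of the 67 genes was 310.9, 327.0 and 288.2 in untreated and 267.7, 247.8 and 214.4 in treated cells, so each treated array was below each untreated one. MRPL8, of the large subunit, read 738.4, 833.5 and 688.9 and then 500.7, 434.3 and 470.5. This was the largest difference of the list (log2 -0.68, SE 0.14, n = 3 pairs, limma adjusted p = 0.0813). MRPS8, of the small subunit, read 229.2, 183.4 and 246.5 and then 166.9, 118.6 and 132.9, also without overlap (log2 -0.66, SE 0.16, n = 3 pairs, limma adjusted p = 0.132). The 5 positive members reached at most 0.07.

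Lists of related function gave these values, where 39.1% of all genes were positive and 60.9% negative. Cytosolic ribosomal protein genes had a median of 0.02, with 45 of 81 positive and RPL7B as the 1 call. Of all genes 0.343% were, like RPL7B, called lower. Respiratory chain and ATP synthase genes had -0.12, with 28 of 33 negative, but 0.15, -0.29 and -0.25 by pair. The TCA cycle genes had 0.21, -0.26 and -0.12 by pair. Ribosome biogenesis genes, which serve the cytosolic ribosome, had a median of -0.15 with 52 of 60 negative and 0 called, and by pair -0.47, -0.11 and 0.02.

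**Figure D3:**
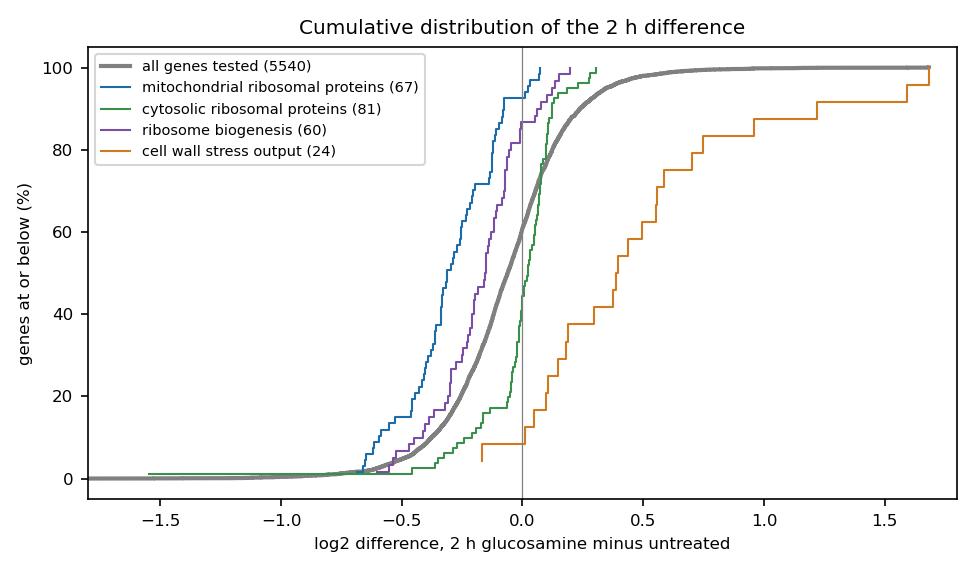
Cumulative percent of genes (y axis) at or below a log2 difference, 2 h minus untreated (x axis), for all 5540 genes and 4 lists, with the number of genes in brackets. The curve of the 67 mitochondrial ribosomal genes lies mostly to the left of that of all genes, the curve of the 24 cell wall stress genes mostly to the right, and cytosolic ribosomal genes rise steeply near 0.

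RPL7B was represented by 2 probe sets that were both called. The brighter read 2107.2, 1706.2 and 1881.4 in untreated and 586.7, 481.8 and 961.9 in treated cells. Treated arrays were all lower (log2 -1.55, SE 0.18, n = 3 pairs, limma adjusted p = 0.0113), and the second probe set had -1.15. Both carry identifiers for shared sequence, and the near-identical copy RPL7A cannot be told apart from it on such probes.

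Among 58 small nuclear and nucleolar RNAs, of which the nucleolar ones mostly guide modification of ribosomal RNA, 3 fell and the median was 0.01. Of all genes 0.343% were called lower. SNR72 read 312.1, 385.2 and 588.2 in untreated and 137.8, 191.2 and 314.3 in treated cells. The ranges just overlapped, and each pair was lower by a similar step (log2 -1.03, SE 0.14, n = 3 pairs, limma adjusted p = 0.0273). SNR44 had -0.81 and SNR63 -1.12 (limma adjusted p = 0.0444 for each). A probe for the large ribosomal RNA read 2575.4, 20.4 and 3402.3 in untreated and 3947.1, 128.7 and 11615.4 in treated cells. It was higher after treatment in each pair and differed far more between pairs, and its part in the values of these RNAs was not tested. YNCM0007C, a tRNA gene, was called on a probe set of shared sequence (log2 -1.48, limma adjusted p = 0.0444).

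General stress genes differed widely between pairs. HSP30, a membrane protein gene of stress and stationary phase, read 564.0, 2796.7 and 185.3 in untreated and 276.2, 1230.1 and 100.4 in treated cells. Pair 2 was highest and pair 3 lowest in both groups, which overlapped, and each pair was lower after treatment (log2 -1.03, SE 0.14, n = 3 pairs, limma adjusted p = 0.0215). SPI1, a wall protein gene of stationary phase, read 940.8, 1932.7 and 514.2 and then 618.9, 1095.4 and 254.6, with the same order of the pairs (log2 -0.81, SE 0.13, n = 3 pairs, limma adjusted p = 0.0444).

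The 24 general stress genes had medians of 0.17, -0.68 and -0.23 by pair and -0.15 in all. Of them 18 were negative, where 60.9% of all genes were, and these 2 were called, against 0.343% of all genes called lower. Without pair 2 the median of these 24 genes was 0.01. The 5 markers of stationary phase, HSP30 among them, summed to 3065, 7129 and 1280 in untreated and 2877, 2953 and 920 in treated cells, with SIP18 below background on all 6 arrays. Their summed level differed more between arrays of a group than between the groups, and its part in the results was not tested.

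In sugar uptake and breakdown 0 genes were called. Glycolysis and fermentation genes had 15 of 19 positive with a median of 0.11, where 39.1% of all genes were positive. HXK1, a hexokinase gene that glucose represses, had -0.81 (limma adjusted p = 0.0826) and HXK2, the main hexokinase of glucose-grown cells, 0.33 (limma adjusted p = 0.243). Hexose transporter genes had a median of -0.19; HXT1 read 5290.5, 6205.8 and 6902.1 and then 3011.2, 4715.8 and 6100.0, lower in each pair (log2 -0.46, SE 0.13, n = 3 pairs, limma adjusted p = 0.191). HXT6 and HXT7, which share probes, had -0.58 and -0.48. All 11 genes of cell separation were negative, where 60.9% of all genes were, with a median of -0.20 and 0 called.

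Other named calls that fell came from no common list. PRM7, a membrane protein gene, fell on both its probe sets (log2 -0.998 and -1.21, limma adjusted p = 0.0444 for each), with a smaller step in pair 2 than in the other pairs. HPT1, which salvages purines, read 1139.9, 1105.8 and 1541.4 and then 462.5, 781.3 and 631.2. Its groups were apart (log2 -1.03, SE 0.17, n = 3 pairs, limma adjusted p = 0.0444). HMS2, STP4, GFD2, YLR297W and YOR289W fell by 0.83, 0.76, 0.91, 0.89 and 1.08 on the log2 scale. YMR230W-A, at -1.20, was called on 1 of 4 probe sets and YDR034C-A, at -0.82, on 1 of 7, all of the others of YDR034C-A between -0.25 and 0.60.

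NDT80, a transcription factor gene of meiosis that haploid cells do not use, was barely above background in untreated cells at 29.5, 31.2 and 39.9 and not above it in treated ones at 3.0, 3.9 and 13.3. With the background level in place of the treated signals it was at least 1.31-fold lower, a bound that was not tested. The call rests on the log2 difference of -1.85 (limma adjusted p = 0.0444), computed from treated signals below background, which have no order. The remaining 12 called probe sets had no gene symbol or several, 11 of them lower.

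**Figure D4:**
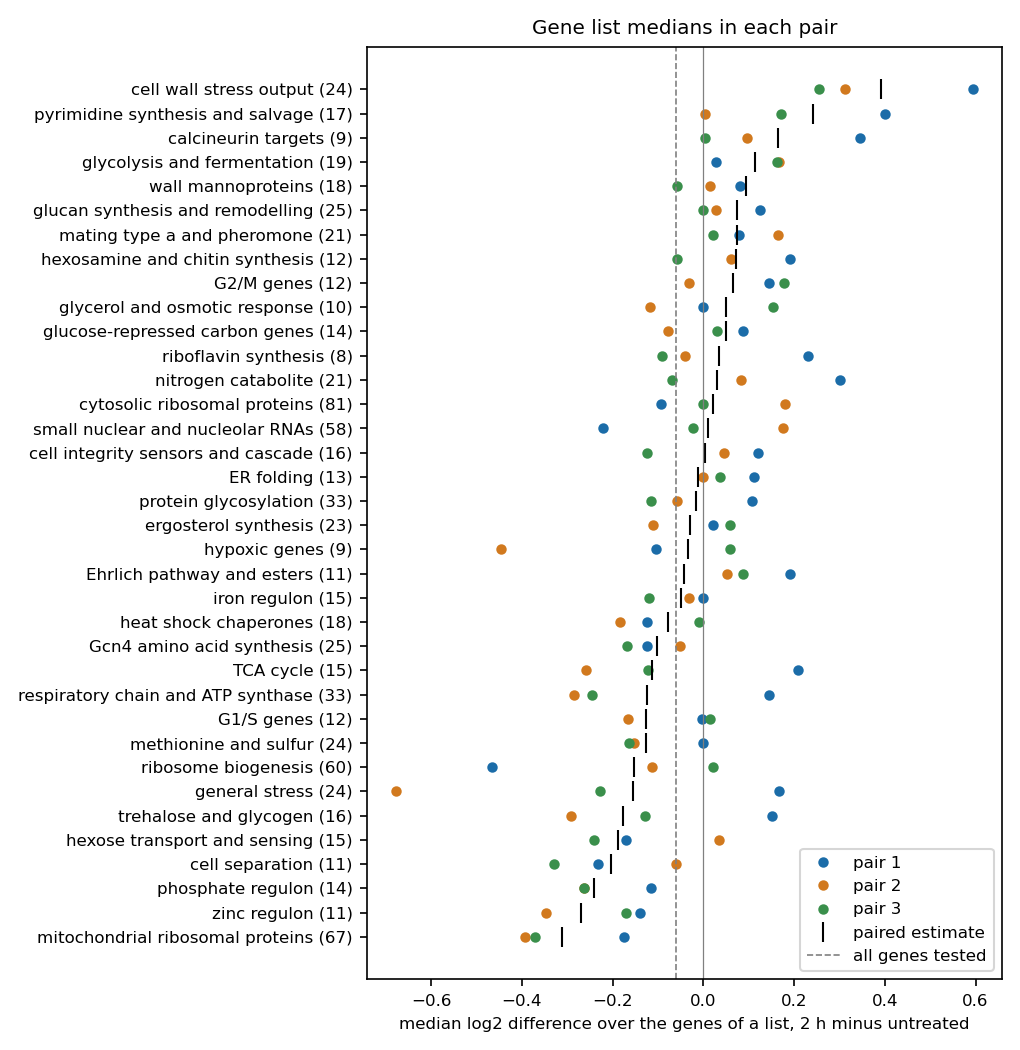
Median log2 difference, 2 h minus untreated (x axis), over the genes of each list with at least 8 tested genes (y axis, number of genes in brackets); coloured points are pairs, black marks the paired estimate, the dashed line all genes tested. The cell wall stress list is highest and the mitochondrial ribosomal list lowest, and points of the general stress, respiratory and ribosome biogenesis lists lie on both sides of 0.

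The fks1 pair, measured on arrays that the comparison above did not use, gave the response to 2 h in the strain labelled fks1. FKS1 read 24.4 untreated and 6.6 treated there, against 7133.6 to 8256.7 on the 6 wild-type arrays. Wall glucan synthesis was not measured. MET17 signal also set the strains apart, and the part of either gene in the values below was not tested. There is 1 array of each kind, so the values have no replicate check. Of the 14 probe sets that rose in wild type, 10 were higher in treated than in untreated fks1 cells, where 42.9% of all probe sets were. Of the 35 that fell, 24 were lower, where 56.1% of all were. A limma term for the difference of the responses, which assumes that the fks1 pair varies like the wild-type pairs, called 0 of 8458 (0%), with an unadjusted p under 0.05 for 531 (6.28%) and a smallest adjusted p of 0.141.

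The cell wall genes that rose in wild type started higher in fks1. SRL3 read 866.9 untreated and 1007.9 treated (log2 0.22), KDX1 496.5 and 493.8 (-0.01) and PRM5 1532.6 and 1594.7 (0.06). The untreated fks1 signals were above all 3 treated wild-type arrays for each of these genes. The list median was 0.04 in fks1, with 14 of 24 positive, as were 2374 of all 5540 genes. RIB4 read 1686.7 and 3173.3 (log2 0.91). The pyrimidine genes called in wild type read 1569.3 and 2124.0 for URA4 (log2 0.44), 4553.6 and 5809.6 for URA1 (0.35) and 2774.3 and 2963.9 for FUR1 (0.10), while the list of 17 had a median of -0.03 in fks1 with 8 positive. PHO5 read 3161.5 and 2552.9 (-0.31), and SPI1 539.6 and 927.0 (0.78), the opposite of wild type. Mitochondrial ribosomal genes had a median of -0.08 in fks1 with 28 of 67 positive, and ribosome biogenesis genes -0.59 with 1 of 60 positive. Over all 5540 genes the fks1 median was -0.05 with 2374 positive, so the mitochondrial ribosomal list lay near all genes there.

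**Figure D5:**
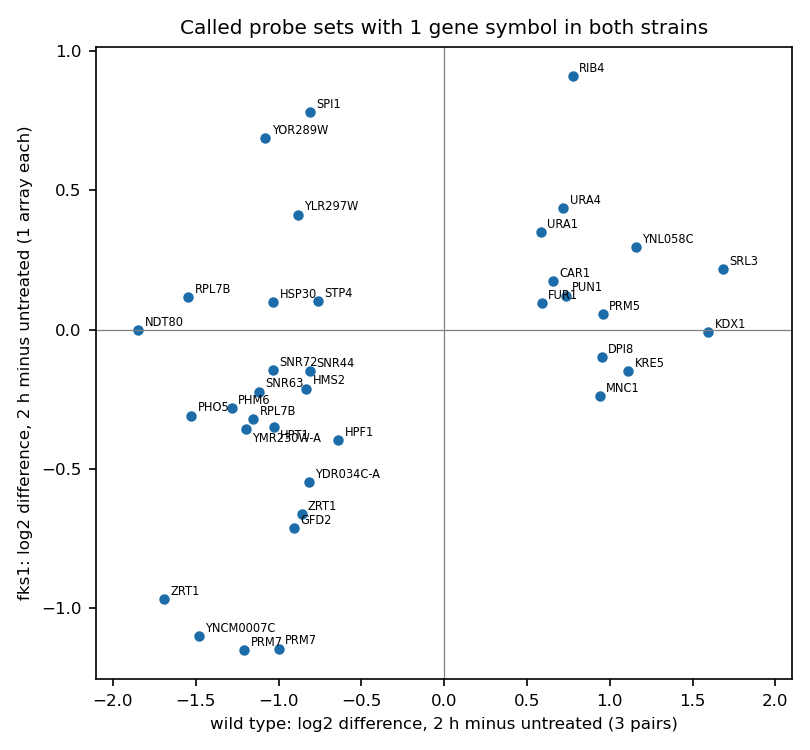
Log2 difference, 2 h minus untreated, in wild type (x axis, 3 pairs) and in fks1 (y axis, 1 array each) for the 37 called probe sets with 1 gene symbol. RIB4, ZRT1 and PRM7 lie far from 0 on both axes, while SRL3, KDX1 and PRM5 lie near 0 in fks1.

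Values of continuous growth in glucosamine share the untreated arrays with the 2 h comparison, so they are given side by side without a comparison. For SRL3 the log2 difference from untreated was 1.68 at 2 h and 2.57 in continuous growth, for PRM5 0.96 and 1.96, and for RIB4 0.78 and 0.87. For PHO5 it was -1.53 and -2.40, for ZRT1 -0.86 and -0.30 on the brightest probe set, and for HPT1 -1.03 and -0.12. DPI8 had 0.95 and -0.01. The median of the mitochondrial ribosomal genes was -0.31 at both, that of the cell wall stress genes 0.39 and 0.26, and that of the TCA cycle genes -0.11 and -0.95.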

How the data were processed

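The authors deposited 1 signal per probe set and array of the Affymetrix YG-S98 array; per the labels' protocols it came from GeneChip Analysis Suite, which also normalised it (version and settings: not given in the sources used here). Its 2% trimmed mean was 500.4 to 500.5 on all 11 arrays, so a change in total RNA per cell is not seen, and fewer cells of a kind and less RNA per cell cannot be told apart.

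From the deposited signals, log2 values were computed after a floor at the 10th percentile of all values (7.7), without 60 control probe sets. Gene symbols came from the platform annotation, updated by RefSeq assembly R64: 6504 probe sets had 1 symbol, 328 several and 2443 none. In lists a gene was represented by its brightest probe set, those for shared sequence last. Differences were tested in limma 3.58.1 (R 4.3.3) with the replicate number as a block, a variance trend and Benjamini-Hochberg adjustment over all 8458 probe sets, two-sided. The same fit was run on simulated data with pair effects built in, so that run does not test whether the numbers mark pairs. The number of arrays limits the precision.

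The pairing comes from the data, not from the labels: all 3 same-numbered pairs of untreated and 2 h arrays had a correlation of deviations over 0.1. The number did not mark such pairs for the continuous arrays. Same-numbered ones had -0.236 to -0.010 with untreated and -0.214 to -0.039 with 2 h arrays, while different-numbered ones reached 0.325. Genes were named if called with 1 symbol, if among up to 12 at each end of the log2 difference with an unadjusted p under 0.05, if in the hexosamine, chitin or riboflavin lists, or if among the 4 of largest difference in another list. Of the second kind, dim or shared-sequence probe sets that did not pass are not described. The 37 gene lists and their members were chosen with earlier results of these data known, 1 more list was added after the calls were seen, and further genes named in the text were chosen after their values were seen. Alternatives were other floors, scalings, filters and variance models, no pairs, and leaving out each pair. Promoter and protein sequences were not used here.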

Additional observations from a re-analysis of the deposited data

How the results depend on the processing

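The count of 49 called probe sets (14 higher, 35 lower) depended on the fit. By limma with no replicate block it was 0 (0 and 0) on the 6 arrays and 3 (1 and 2) on the 9 wild-type arrays, so all calls but 3 rest on the pairing. With a floor of 20, with no filter on dim probe sets and without a variance trend limma called 0 (0 and 0), with 968, 983 and 939 unadjusted p under 0.05. Median scaling gave 28 (15 lower), quantile normalization 17 (6 and 11), and a filter over the 9 wild-type arrays, chosen after seeing the data, 17 (4 and 13), every one of them among the 49. Leaving out a pair gave 0 to 84 in all, 0 to 42 higher and 0 to 42 lower: without pair 2 the count was 0, without pair 3 it was 16 and without pair 1 it was 84, of which 25 are among the 49. The test of the fks1 response against that of wild type called 0, but 34 without the filter on dim probe sets and 0 to 1 with a pair left out. A log2 of signal plus 16, a strict filter, no shared-sequence probe sets and a robust variance gave counts within 1.5 times. No named call changed sign in any alternative in which it was tested. For many alternatives this was fixed in advance. All 3 pairs had the same direction for every call, so leaving out a pair could not turn a sign. Fits with no pairs or another variance model keep the same log2 difference. The cause of these changes was not tested. Signals under the background level of 25.5 have no order.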

Other observations

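The gene lists given here had 0 calls at 2 h by limma, where 0.217% of all genes were called higher and 0.343% lower. An unadjusted p under 0.05 was found for 4 heat shock genes, all lower. It was found for 5 methionine and sulfur genes (1 higher, 4 lower) and 5 mating type a and pheromone genes (4 higher, 1 lower). The other 3 lists had 0 such genes. Over all genes 2.98% were higher and 9.1% lower at that p. Heat shock chaperone genes had 14 of 18 negative with a median of -0.08, where 60.9% of all genes were negative. SSA4, an inducible Hsp70 gene, read 181.8, 201.3 and 175.8 in untreated and 115.0, 130.1 and 110.2 in treated cells, without overlap (log2 -0.65, SE 0.15, n = 3 pairs, limma adjusted p = 0.128). Methionine and sulfur genes had a median of -0.13 with 13 of 24 negative, and MET14, the APS kinase, had -0.63 (limma adjusted p = 0.147). Of 21 mating type a and pheromone genes 13 were positive, where 39.1% of all genes were, with a median of 0.07. ER folding, protein glycosylation and ergosterol synthesis genes had medians of -0.01, -0.02 and -0.03, each of which turned positive with median scaling.

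A probe set with no single gene symbol had the lowest difference of all calls. Its signals were 525.6, 553.4 and 796.0 in untreated and 126.6, 146.5 and 97.2 in treated cells, with no overlap (5.05-fold lower, log2 -2.33, SE 0.21, n = 3 pairs, limma adjusted p = 0.00614). In fks1 it read 351.9 untreated and 343.6 treated.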
